A study of Mus musculus with 3 samples.

Results

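A pair of lacrimal gland nuclei libraries was compared within the same window of UMIs per barcode: one from mice with dry eye induced by scopolamine and dry stress, and one from mice with the same model that also received tamsulosin. Barcodes were taken with 1600 to 8000 UMIs (unique molecular identifiers, 1 per captured RNA molecule), at least 300 genes, at most 5% of UMIs from mitochondrial (mt-) genes, and less than 30% from Mucl2, Scgb2b2 and Scgb1b2, abundant secretory transcripts. This kept 3967 of 10024 scopolamine barcodes and 7617 of 12322 tamsulosin barcodes, 11584 of the 22346 barcodes of both libraries and of 29599 in the series. The series also holds a library of normal control mice, of which the same rule kept 5512 of 7253 barcodes. Its values are given beside the others, and it enters no ratio.

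The tissue is mouse lacrimal gland, the nuclei were profiled with 10x Genomics 3' chemistry, and each group has 1 library. The control group is labelled as normal control. Neither the dose and duration of scopolamine or tamsulosin nor the strain, age and number of animals is given in the sources used here, and the tamsulosin group carries scopolamine and dry stress too, so its comparison with the scopolamine group is for added tamsulosin. With 1 library per group there is no replicate, no test and no p-value: every interval below covers counting error only, and a difference between the libraries cannot be told apart from a difference between the mice or preparations. The protocol text also describes a sort of red fluorescent nuclei and a plate method, and whether it applies to these libraries is not known.

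The lacrimal gland makes the watery part of tears. Its acinar cells secrete protein and fluid when acetylcholine acts on muscarinic receptors, chiefly M3, and noradrenaline on alpha-1 receptors, both coupled through Gq to calcium, and myoepithelial cells contract around the acini. Of the agents used, scopolamine is a muscarinic antagonist, and tamsulosin an alpha-1 antagonist that prefers the 1A and 1D subtypes.

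Raw UMIs were summed per library, and each gene is given in CPM, its UMIs scaled to the same total in every library, where the total leaves out Mucl2, the Scgb, Obp and Esp families and mt- genes. These left-out genes were 8.34% of kept UMIs in control, 19.3% in scopolamine and 26.2% in tamsulosin, and mt- genes alone were 0.302%, 0.274% and 0.875%. Median UMIs per kept barcode were 2283, 2956 and 3408 in the same order, and median genes 1295, 1441 and 1444. The window did not make depth equal inside groups of nuclei: medians were 3352.5 UMIs in scopolamine and 5086 in tamsulosin for the duct-like group described below, and 2861.5 and 3869 for the Spag17 and Greb1l group. A gene counted as measured at a mean of at least 10 CPM over both compared libraries. Its relative log2 ratio is log2 of tamsulosin over scopolamine, with 1 CPM added to each, less the median over measured genes, which was -0.07. A gene was called at 1.5-fold on that scale. Of 9206 measured genes, 876 were higher in tamsulosin (9.52%) and 479 lower (5.2%). Each list count over the whole gland is to be read against these 2 shares.

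In a whole-gland sum, more nuclei of a type and more RNA per nucleus of it cannot be told apart. The nuclei of both libraries were therefore also clustered, and clusters were named from marker genes with the ending "-like". Fibroblast-, macrophage-, myoepithelial-, duct-, T or NK-, endothelial-, B or plasma-, erythroid- and salivary-like nuclei were found. Most other epithelial nuclei were left without a cell type name and called by leading genes (Nckap5 and Papss2, Spag17 and Greb1l, Kit and Car6), since most of their clusters came largely from 1 library and may be that library, not a type. Markers of lacrimal acinar cells were present in all 3 libraries, none of the 12 at 0 UMIs in any. A group was compared where it held at least 100 nuclei in each library, which was so for 8 groups. The share of measured genes higher in tamsulosin, and the share lower, were 8.02% and 4.21% in Spag17 and Greb1l nuclei, 4.47% and 1.24% in Nckap5 and Papss2 nuclei and 11.6% and 3.83% in Kit and Car6 nuclei. In duct-like nuclei they were 8.16% and 5.89%, in myoepithelial-like 7.44% and 3.87%, and in fibroblast-like 12.4% and 9.87%. In macrophage-like nuclei they were 9.13% and 6.92%, and in T or NK-like 11.8% and 6.79%. Each count inside a group is to be read against these shares. Inside the epithelial groups called by leading genes, both libraries came largely from different clusters, so a ratio there also compares clusters. Scopolamine and tamsulosin nuclei were 1596 and 81 in 1 Nckap5 and Papss2 cluster and 119 and 1110 in the other. They were 318 and 27, and 17 and 601, in the Kit and Car6 clusters. In 1 Spag17 and Greb1l cluster they were 323 and 81, and in the others 91 and 1104, 42 and 1018, and 26 and 1005. As a second whole-gland value, each library was rebuilt with every group held at the share of UMIs it had in the scopolamine library. Since most epithelial clusters came largely from 1 library, holding shares can also take out a difference within a cell type. The mix of clusters inside a group was not held. With shares held in this way, 374 of 9267 measured genes were higher (4.04%) and 34 lower (0.367%), of which 324 and 26 were also called above. Each list count with shares held is to be read against 4.04% and 0.367%, and a count of 0 lies near them.

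**Figure D1:**
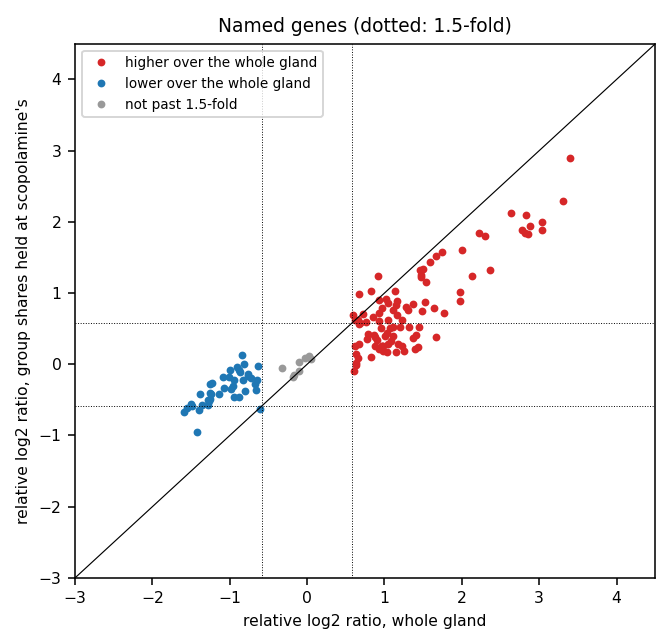
Relative log2 ratio of 145 of the 150 named and measured genes over the whole gland (x axis) and with group shares held at those of the scopolamine library (y axis); each point is a gene, and dotted lines mark 1.5-fold. Most points lie nearer to 0 on the y axis than on the x axis, and of 142 called genes measured there 64 stayed past 1.5-fold.

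Among groups named from markers, myoepithelial-like nuclei were 326 of 3967 in scopolamine (8.22%, 95% interval 7.38 to 9.12, exact Clopper-Pearson here and below) and 305 of 7617 in tamsulosin (4.00%, 3.58 to 4.47). Fibroblast-like nuclei were 6.28% (5.54 to 7.08) and 3.74% (3.33 to 4.19), and macrophage-like nuclei 8.85% (7.98 to 9.77) and 5.51% (5.01 to 6.05). B or plasma-like nuclei went the other way, with 23 in scopolamine (0.580%) and 123 in tamsulosin (1.61%). Salivary-like nuclei numbered 0 in scopolamine, which allows a share of up to 0.0756% by the limit of 3 counts, and 128 in tamsulosin (1.68%). These are shares of barcodes that passed the rule: 4722 scopolamine barcodes lay below 1600 UMIs against 506 of tamsulosin, and 3337 tamsulosin barcodes were at or above the secretory limit against 629 of scopolamine. Both gates can set the shares. The epithelial groups called by leading genes differed most in size and are given as a description only: Nckap5 and Papss2 nuclei were 43.2% of scopolamine and 15.6% of tamsulosin, and Spag17 and Greb1l nuclei 12.2% and 42.1%. Kit and Car6 nuclei were 8.44% and 8.24%. A further group, rich in secretory RNA, held 24 scopolamine nuclei (0.605%) and 745 tamsulosin nuclei (9.78%), at a median left-out share of 41.5% and 41.9% of their UMIs.

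**Figure D2:**
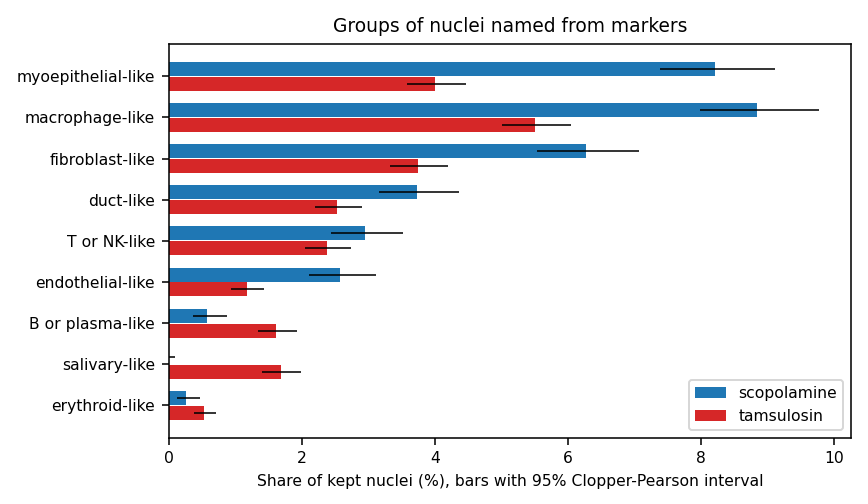
Share of kept nuclei (x axis, percent) in each group named from markers (y axis) in the scopolamine library (blue) and the tamsulosin library (red), with 95% Clopper-Pearson intervals. Myoepithelial-, macrophage- and fibroblast-like shares were lower in tamsulosin, and salivary-like nuclei numbered 0 in scopolamine and 128 in tamsulosin.

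Among genes with a mean of at least 20 CPM and a gene name (no clone or model names, ribosomal or haemoglobin genes), the 5 furthest above scopolamine reached their highest tamsulosin level in salivary-like nuclei. Bpifa2 (parotid secretory protein) was 0 UMIs in scopolamine, 1351 CPM in tamsulosin and 143 CPM in control, at least 5022-fold higher in tamsulosin against a floor of 3 counts per library. Smr3a, a submaxillary gland androgen-regulated protein, was likewise 0 in scopolamine, 780.4 CPM in tamsulosin and 80.03 CPM in control, at least 2900-fold higher. Scopolamine was thus the only library of the 3 without a UMI of either gene in its kept barcodes. Chia1, an acidic chitinase, and Cst10, a cystatin, each had 1 UMI in scopolamine and 111 and 56.3 CPM in tamsulosin, ratios of 1235-fold (95% interval 221 to 48813) and 627-fold (95% interval 112 to 24803). Amy1, salivary amylase, was 193 CPM in control, 29.8 in scopolamine and 720.5 in tamsulosin, 24.2-fold (95% interval 21.7 to 27.1) higher; it shares sequence with other amylase genes, so its count is uncertain. Of 9 salivary gland markers, 7 had 0 UMIs in scopolamine, 2 in tamsulosin and 1 in control, and their summed level was 419 CPM in control, 30.05 in scopolamine and 2903 in tamsulosin. The 128 salivary-like nuclei held 63.6% of the tamsulosin UMIs of Bpifa2 and 63.8% of those of Amy1. The remainder was found in every compared group, with Bpifa2 from 209.6 CPM in duct-like to 661 CPM in macrophage-like nuclei. Without salivary-like nuclei, 882 genes were counted as genes at least 1.5-fold higher in tamsulosin and 484 as genes at least 1.5-fold lower in tamsulosin.

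The other 10 of the 15 highest named genes included secreted proteins and cytochrome P450 enzymes. Wfdc18, Ltf, Fcgbp and Cyp2a5, with Fth1 and several ribosomal protein genes, were also leading genes of the secretory RNA-rich group, nearly all from tamsulosin, and its part in these results and in the ribosomal one was not tested. Wfdc18, a secreted whey acidic protein relative, was 200.3 CPM in control, 504 in scopolamine and 5105 in tamsulosin, 10.1-fold (95% interval 9.86 to 10.4) higher than scopolamine. Ltf, which encodes the iron-binding tear protein lactoferrin, was 279, 803 and 6326 CPM, 7.88-fold (95% interval 7.71 to 8.05) higher. Fcgbp, a mucus-associated secreted protein, was 46.1, 97.8 and 665 CPM, and Cyp2f2, a cytochrome P450, 365, 461 and 3189 CPM. Tmem176a, Tmem176b, Ggh, Ccl9, Cyp2a5 and Wfdc12 completed the set, with ratios between 6.48 (Wfdc12) and 9.81 (Tmem176a). All 10 were higher in tamsulosin than in either other library.

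The secreted protein genes were higher inside the groups too, although in the epithelial groups called by leading genes a ratio also compares different clusters. In Spag17 and Greb1l epithelial nuclei, Ltf was 3541 CPM in scopolamine and 9679.8 in tamsulosin, 2.73-fold (95% interval 2.65 to 2.82) higher, and in duct-like nuclei 2724 and 5791. Macrophage-like nuclei, which should lack Ltf, carried 448 and 3585 CPM, and T or NK-like nuclei 373 and 4667. Wfdc18 showed the same in macrophage-like nuclei, with 368 and 4208 CPM. The share of left-out secretory genes moved with them, from a median of 17.0% of UMIs in scopolamine macrophage-like nuclei to 29.6% in tamsulosin. The part that free RNA of broken cells has in these ratios was not tested.

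**Figure D3:**
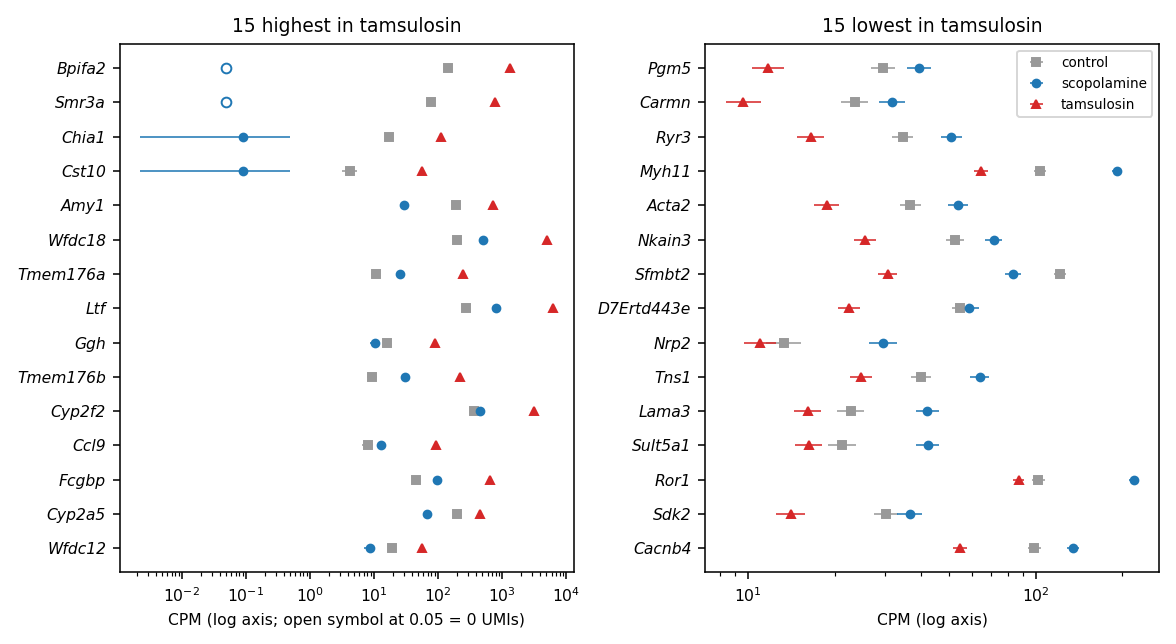
CPM (x axis, log scale) of the 15 highest and 15 lowest named genes (y axis) in control (grey squares), scopolamine (blue circles) and tamsulosin (red triangles), with 95% Poisson intervals; open symbols mark 0 UMIs. The tamsulosin symbol is the rightmost for all 15 genes on the left and the leftmost for all 15 on the right.

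Other tear proteins were higher in tamsulosin. Of 14 measured members of that list outside the left-out families, 9 were higher and 1 lower, with a median of 0.97. Dmbt1, a mucosal scavenger glycoprotein, was 363 CPM in control, 248 in scopolamine and 1217 in tamsulosin, 4.91-fold (95% interval 4.72 to 5.11) higher. The lipocalin gene Lcn2 was 1.48, 12.02 and 29.6 CPM. Mup4, of a multigene family of lipocalins whose near-identical copies make its count uncertain, was 323, 572 and 1202 CPM. Pnliprp1, a pancreatic lipase-related protein, ran opposite, with 1065 CPM in control, 58.03 in scopolamine and 28.4 in tamsulosin, 2.05-fold (95% interval 1.83 to 2.29) lower in tamsulosin. With shares held, its relative log2 ratio was -0.46, not past 1.5-fold, and 9 of 14 tear proteins were still higher. Where the secretory limit was set at 15%, 5 of 13 were higher and 3 lower. At that limit more genes in all were called lower than at 30%, with the counts given at the end.

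Chloride and sodium transporters that drive fluid secretion were among the higher genes: 7 of 16 measured members of the ion and water transport list were higher and 1 lower, median 0.49. Slc12a2 encodes the basolateral sodium-potassium-chloride cotransporter, which loads chloride into secretory cells. It was 175 CPM in control, 305 in scopolamine and 1148 in tamsulosin, 3.77-fold (95% interval 3.64 to 3.91) higher. Of the beta subunits of the sodium pump, Atp1b1 was 37.8 and 162 CPM and Atp1b3 125 and 373. Their control values were 15.9 and 79.96 CPM. Both beta subunits were also past 1.5-fold inside both large epithelial groups. Atp1b1 was 1.84-fold (95% interval 1.58 to 2.16) higher in Spag17 and Greb1l nuclei and 4.94-fold (95% interval 3.48 to 7.16) higher in Nckap5 and Papss2 nuclei. In duct-like nuclei it was 1.19-fold (95% interval 0.932 to 1.53), not past 1.5-fold, while macrophage-like nuclei carried 19.8 and 89.03 CPM. Slc12a2 was 1.36-fold (95% interval 1.299 to 1.43) higher in Spag17 and Greb1l nuclei, not past 1.5-fold relative to their median. Aqp8, a water channel, was the member lower in tamsulosin, at 16.3 and 8.96 CPM. With shares held, the list had 4 of 15 higher and a median of 0.04.

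The targets of the drugs were not past 1.5-fold among those measured over the whole gland. Adra1a, the alpha-1A receptor, was 280.0 CPM in control, 189.9 in scopolamine and 159 in tamsulosin, 1.19-fold (95% interval 1.13 to 1.26) lower and not past 1.5-fold. Of the 8 compared groups it was lower in 4, higher in 1 and not past 1.5-fold in 3. The lower ones were macrophage-like (127 and 58.7 CPM), fibroblast-like (128 and 68.8), T or NK-like (114 and 69.2) and Kit and Car6 nuclei (74.3 and 38.3). In duct-like nuclei it was higher, at 83.9 and 158 CPM. The part that free RNA of broken cells has in these group values was not tested. Adra1b and Adra1d stayed below 2 CPM in all 3 libraries. Chrm3, the M3 receptor, was 4048, 4390.0 and 3723 CPM, and Chrm1 2.82, 5.74 and 3.37 CPM, while Chrm4 and Chrm5 had 0 UMIs. Downstream, 1 of 24 measured Gq and calcium signalling genes was higher and 2 lower. The higher one was Atp2a3, a calcium pump of the endoplasmic reticulum, at 6.64 and 27.8 CPM, and the lower ones Camk2d, a calcium-dependent kinase, at 385 and 229 CPM and Atp2b4, a plasma membrane calcium pump, at 13.8 and 7.11.

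Ribosomal protein genes were higher together. All 30 listed members were higher in tamsulosin over the whole gland, with a median of 1.23. Rpl32 was 52.2 CPM in control, 66.2 in scopolamine and 215 in tamsulosin, 3.24-fold (95% interval 2.998 to 3.51) higher, and Rps24 102, 133 and 405 CPM. The difference was seen in every compared group: from 27 of 30 measured members in duct-like nuclei to 30 of 30 in 3 groups were higher, with medians from 0.99 in Nckap5 and Papss2 nuclei to 1.67 in Kit and Car6 nuclei. In macrophage-like nuclei, Rpl32 was 63.97 and 235 CPM, against 9.13% of their measured genes higher. Of 2562 genes measured in all 8 groups, 81 were higher in every one, 56 of them ribosomal protein genes, and 1 was lower in every one. Ribosomal protein genes have many processed pseudogenes that can share reads. Nuclear genes of oxidative phosphorylation were also higher over the whole gland, with 20 of 39 measured members higher and 0 lower, median 0.59. Inside groups the difference was less even. In T or NK-like nuclei 1 of 5 was higher (median -0.19), and in duct-like nuclei 3 of 14 (median 0.28). Kit and Car6 nuclei had the most, with 20 of 27 (median 1.08). Over the whole gland Cox6c was 13.5, 17.2 and 47.1 CPM and Ndufa4 18.5, 29.7 and 80.1. The messages of both lists are of the cytoplasm. The mt- share, also cytoplasmic, was higher in tamsulosin within each compared group: its median was 0.216% and 0.597% in macrophage-like nuclei. Among barcodes with at most 1% mt-, all 30 ribosomal genes were higher, with a median of 1.17. A limit on mt- genes does not remove other cytoplasmic RNA, and its part in these ratios was not tested.

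Antigen presentation genes were higher. Among 10 measured genes of MHC class I presentation, 7 were higher and 0 lower, median 0.72. B2m, the light chain of class I molecules, was 17.96 CPM in control, 44.2 in scopolamine and 86.9 in tamsulosin, 1.96-fold (95% interval 1.78 to 2.17) higher. H2-K1, a classical heavy chain, was 122, 159.9 and 293 CPM, 1.83-fold (95% interval 1.74 to 1.93) higher. Tapbp, which loads peptide, was 31.5 and 74.1 CPM, and H2-T23, a nonclassical heavy chain, 44.2 and 95.4. H2 heavy chain genes are near-identical copies, so reads may be split between them. Inside the groups, B2m was 26.2 and 74.04 CPM in Spag17 and Greb1l nuclei and 61.9 and 163 in fibroblast-like nuclei. In macrophage-like nuclei it was 154 and 181 CPM, not past 1.5-fold. In duct-like nuclei 1 of 5 measured members was higher, with a median of -0.18.

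Class I promoters carry sites for NF-kB and interferon-regulated factors, so the upstream sequences of the members were searched. All 9 members with a RefSeq promoter (GRCm38.p6) were searched over the 250 bases before the start on both strands for the letters GGGATTCCC, a kappa-B core, and GAAANNGAA, a core of the interferon-stimulated response element; the motifs were chosen after the genes' values were seen. The kappa-B letters were in H2-K1, H2-D1 and H2-Q7, and in 0.301% of all 32851 promoters. The GAAANNGAA letters were in H2-T23 and B2m, and in 7.13% of all promoters. Both sets of letters were chosen with class I genes in view, so the shares over all promoters test no enrichment. Shown, because these genes were measured here with such a match, are 59-base stretches around a match, 5′ to 3′ on the gene's strand with the match in capitals, for the genes whose stretch lies outside annotated UTRs. They lie upstream of the gene on the minus strand for H2-K1 (chr17:34000424-34000482), on the plus strand for H2-Q7 (chr17:35438998-35439056) and on the plus strand for B2m (chr2:122147523-122147581).
H2-K1: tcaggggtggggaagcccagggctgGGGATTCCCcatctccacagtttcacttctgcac
H2-Q7: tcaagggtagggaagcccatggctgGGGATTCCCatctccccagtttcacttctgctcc
B2m: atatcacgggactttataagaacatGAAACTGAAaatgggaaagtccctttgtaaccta
A match describes letters only, and a gene without these exact letters may hold another form of either site. In the wider lists of these pathways, 2 of 11 measured NF-kB and acute phase genes and 1 of 14 interferon-stimulated genes (Oasl2, 47.4 and 87.1 CPM) were higher, and none was lower.

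MHC class II genes were higher in macrophage-like nuclei, where 4 of 7 measured members were higher and 0 lower, median 0.82, against 9.13% of measured genes there. H2-Ab1 was 117 CPM in scopolamine and 296 in tamsulosin, 2.52-fold (95% interval 2.01 to 3.196) higher, and Cd74, the invariant chain, 227 and 433, 1.91-fold (95% interval 1.61 to 2.27) higher. Ciita, the class II transactivator, was 155 and 212 CPM and not past 1.5-fold. In the same nuclei, 4 of 6 measured B or plasma cell markers were higher. Over the whole gland 3 of 6 class II genes were higher, and 0 of 6 where the secretory limit was 15%.

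Smooth muscle contractile genes were lower in tamsulosin. Myh11, smooth muscle myosin, was 104 CPM in control, 192 in scopolamine and 64.6 in tamsulosin, 2.97-fold (95% interval 2.78 to 3.19) lower. Acta2, smooth muscle actin, was 36.7, 53.6 and 18.7 CPM, 2.86-fold (95% interval 2.52 to 3.26) lower. Of 9 measured contractile genes, 7 were lower and 1 higher, median -0.68; the higher one, Mylk, a myosin light chain kinase, was 206 and 387 CPM. Pgm5, Carmn (a smooth muscle noncoding RNA) and Ryr3 (a calcium release channel) were among the 15 lowest, and 85.5% of the scopolamine UMIs of Ryr3 lay in myoepithelial-like nuclei. An unnamed cluster with Myocd, a smooth muscle coactivator, among its leading genes held 12 scopolamine and 3 tamsulosin nuclei, and its part was not tested. Within myoepithelial-like nuclei, Myh11 was 1975 and 1470.4 CPM, 1.34-fold (95% interval 1.24 to 1.45) lower, Acta2 496 and 367, and none of 13 measured contractile genes was past 1.5-fold. With shares held, 1 of 9 was lower, Acta2 (-0.65), and Pgm5 (-0.66) and Carmn (-0.62) also remained lower. The summed level of the 11 myoepithelial markers was 349 CPM in control, 604 in scopolamine and 549 in tamsulosin, and 4 of 5 measured ones were lower. Mylk, the 1 higher among the measured markers, is a large part of that sum, at 206 and 387 CPM.

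Collagen and matrix genes pointed in opposite directions in the whole gland and in fibroblast-like nuclei. Over the whole gland 0 of 22 measured members were higher and 8 lower, median -0.36; Postn, a matrix protein, was 34.4 CPM in control, 69.6 in scopolamine and 30.6 in tamsulosin, and Col4a1, of basement membrane collagen, 20.7, 49.96 and 25.3. In the 249 scopolamine and 285 tamsulosin fibroblast-like nuclei, 18 of 30 measured members were higher and 0 lower, median 0.67, against 12.4% of measured genes there. Some members, among them Col1a1, Col3a1 and Dcn, are also markers from which this group was named. Of the 11 fibroblast markers, 7 were higher in these nuclei and 0 lower, median 0.71. Col3a1, a fibrillar collagen, was 576 CPM in scopolamine and 1005 in tamsulosin, 1.74-fold (95% interval 1.54 to 1.98) higher. Col1a1 was 66.3 and 146 CPM, 2.205-fold (95% interval 1.54 to 3.21) higher, Dcn (decorin) 688 and 1099.5, and Eln (elastin) 137 and 235. Lama2 and Lamc1, laminin chains, were not past 1.5-fold, at 1.17-fold (95% interval 1.09 to 1.25) and 0.988-fold (95% interval 0.805 to 1.21) of scopolamine. With shares held, 1 of 25 members was higher and 0 lower. The larger of the 2 fibroblast-like clusters had 21 of 29 higher, and the smaller, with 50 and 53 nuclei, 2 of 11. The left-out secretory share of these nuclei differed too, at medians of 17.3% and 28.5%, and its part was not tested; over the 90 scopolamine and 18 tamsulosin nuclei below 15%, 8 of 16 were higher and 0 lower.

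**Figure D4:**
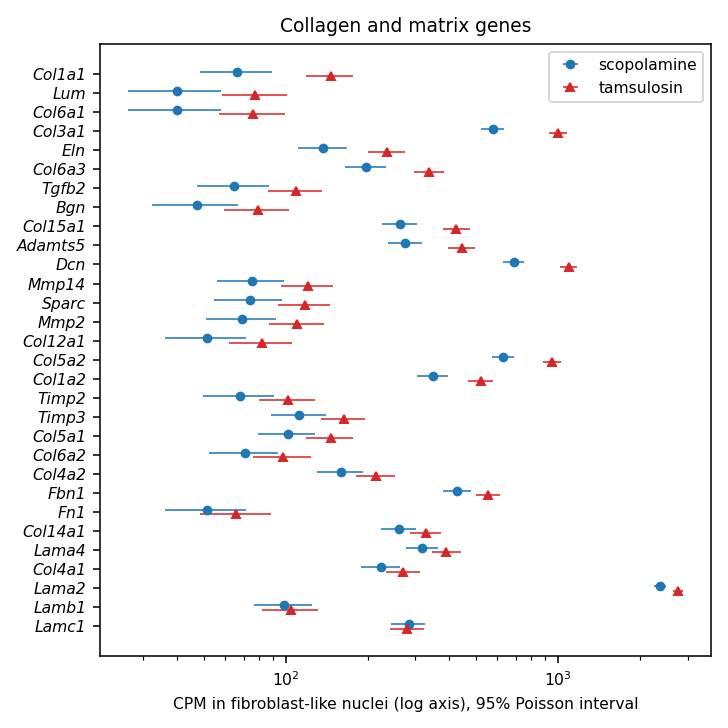
CPM (x axis, log scale) of the 30 measured collagen and matrix genes (y axis) in fibroblast-like nuclei of scopolamine (blue circles) and tamsulosin (red triangles), with 95% Poisson intervals. The genes are ordered by relative log2 ratio; Col1a1 is at the top with 66.3 and 146 CPM.

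Epithelial differentiation, growth factor and metabolic genes differed in part. Among growth factors and ERBB genes, 3 of 28 measured were higher and 9 lower. Erbb4, a neuregulin receptor, was 2062 CPM in control, 1978 in scopolamine and 953 in tamsulosin, 2.08-fold (95% interval 2.04 to 2.12) lower, and its ligand gene Nrg4 41.8, 124 and 55.7 CPM. In Spag17 and Greb1l nuclei Erbb4 was 954 and 400.4 CPM, but in Nckap5 and Papss2 nuclei, where it was highest, 2783 and 2480.3, not past 1.5-fold. Macrophage-like nuclei carried 1254 and 579.7 CPM of it. With shares held, 0 of 29 members were called in either direction. Barx2 and Tfcp2l1, transcription factors of gland epithelium, were 181 and 469 CPM and 256 and 647 CPM, and 6 of 22 lineage factors were higher over the whole gland and 0 of 21 with shares held.

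Of 25 lipid metabolism genes measured over the whole gland, 5 were higher and 2 lower. In Spag17 and Greb1l nuclei, 9 of 25 measured lipid metabolism genes were higher and 0 lower, against 8.02% of measured genes, although the list's median was 0.06. Scd2, a desaturase, was 97.9 and 222 CPM there, 2.27-fold (95% interval 1.899 to 2.72) higher, and Insig1, a sterol sensor partner, 14.2 and 32.3. Scd2 was also higher in macrophage-like nuclei, at 59.3 and 136 CPM, but there it was the 1 higher gene of 17, and 5 were lower, Cd36 among them at 180.3 and 69.8 CPM. Cd36, a fatty acid transporter, was also lower over the whole gland, at 9.21, 18.7 and 5.97 CPM, 3.12-fold (95% interval 2.49 to 3.93). It remained lower with shares held (-0.95). Of xenobiotic metabolism genes, 8 of 10 measured were higher and 1 lower; the sulfotransferase Sult1e1 was 8.74, 75.7 and 231 CPM and Sult5a1 21.2, 42.1 and 16.3. With shares held, 2 of 10 were higher. Immunoglobulin transcripts were higher, Igha at 81.7, 35.9 and 172 CPM and Jchain at 20.04, 15.1 and 70.9. The share of B or plasma-like nuclei was larger too; they held 32.8% of the tamsulosin UMIs of Igha, at 4559.6 CPM. T or NK-like nuclei carried 46.6 and 742 CPM of it.

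A minority of clock genes was called over the whole gland: 1 of 6 measured activators was lower (median -0.04), 2 of 6 repressors were higher (median 0.12) and 1 of 2 output factors was higher. Arntl, an activator, was 39.5 CPM in control, 159.9 in scopolamine and 96.5 in tamsulosin, 1.66-fold (95% interval 1.55 to 1.77) lower in tamsulosin. The repressors Per2 and Per3 were 22.7, 17.9 and 37.3 CPM and 85.3, 38.8 and 68.8 CPM, and Hlf, an output factor, 19.97, 30.05 and 75.9 CPM. Tamsulosin lay between control and scopolamine for Arntl and Per3. The hour of collection is not given in the sources used here, and with shares held none of these genes was past 1.5-fold. Inside duct-like nuclei, 3 of 4 measured activators were lower (median -0.78), against 5.89% of measured genes. In macrophage-like nuclei, 2 of 4 activators and 2 of 2 repressors were lower, against 6.92%. No activator was called in the other compared groups. Of the repressors, 1 was higher in each of Spag17 and Greb1l, duct-like and myoepithelial-like nuclei. Of 2 output factors, 1 was higher in fibroblast-like and in myoepithelial-like nuclei.

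Epithelial structure and stress genes were higher in part over the whole gland. Of 9 measured keratin and basal genes, 4 were higher and 1 lower, and of 19 junction genes 6 were higher and 0 lower. Krt8, a keratin of simple epithelium, was 26.2 CPM in control, 74.2 in scopolamine and 133 in tamsulosin, and Epcam, an epithelial adhesion molecule, 57.9, 124 and 255. Trp63, a factor of basal and myoepithelial cells, was the lower gene, at 51.99, 105 and 55.3 CPM, but within myoepithelial-like nuclei it was 1143 and 1363 CPM, and with shares held its sign turned (0.13). With shares held 0 of 9 keratin and basal genes were called.

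Chaperone and antioxidant genes showed the same partial pattern, beside 9.52% of all measured genes higher and 5.2% lower. Of 11 measured heat shock and cold-inducible genes, 5 were higher and 1 lower; Hspa8, a constitutive chaperone, was 17.1, 43.2 and 70.4 CPM, and Cirbp, a cold-inducible RNA-binding protein, 38.8, 35.5 and 21.8. Of 17 oxidative stress defence genes, 5 were higher and 0 lower, among them the glutathione transferase gene Gsta3 at 368, 310.0 and 582 CPM. The cAMP signalling list was near the shares over all measured genes, with 1 of 22 genes higher and 2 lower. The phosphodiesterase gene Pde7a was 135 and 197 CPM, with its sign turned when shares were held (-0.10). Pde8a was 79.3 and 48.3 CPM, and Rapgef4 25.9 and 10.7.

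No member of some lists was past 1.5-fold over the whole gland. Of 15 measured apoptosis and p53 genes and 20 genes of mitochondrial dynamics and quality control, none was called.

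Other lists had more calls inside some groups. Of 28 ER chaperone genes, 4 were higher over the whole gland, 7 with shares held, 12 in Kit and Car6 nuclei, 8 in Spag17 and Greb1l nuclei and 8 of 24 in myoepithelial-like nuclei. In the same order, 9.52%, 4.04%, 11.6%, 8.02% and 7.44% of all measured genes were higher. Of the other groups, Nckap5 and Papss2 nuclei had 6 of 28 higher and fibroblast-like nuclei 6 of 23, with 1 lower. Macrophage-like nuclei had 3 of 26, T or NK-like 3 of 19 and duct-like 1 of 21, with 1 lower in the duct-like. The shares of all measured genes higher there were 4.47%, 12.4%, 9.13%, 11.8% and 8.16%. Of 17 ATF4 amino acid response genes 2 were higher and 1 lower over the whole gland. In Kit and Car6 nuclei 5 of 10 were higher. Elsewhere, 1 of 17 was higher in Nckap5 and Papss2 nuclei and 1 of 13 in Spag17 and Greb1l nuclei. Fibroblast-like nuclei had 2 of 7 higher and macrophage-like nuclei 2 of 6. None was higher of 5 in myoepithelial-like, 4 in duct-like and 2 in T or NK-like nuclei. In each of Nckap5 and Papss2, duct-like and fibroblast-like nuclei 1 member was lower. Of 15 measured iron genes, 6 were higher and 1 lower: Fth1, ferritin heavy chain, was 15.1, 32.1 and 126 CPM, 3.91-fold (95% interval 3.501 to 4.38) higher, with a relative log2 ratio of 1.60 with shares held.

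**Figure D5:**
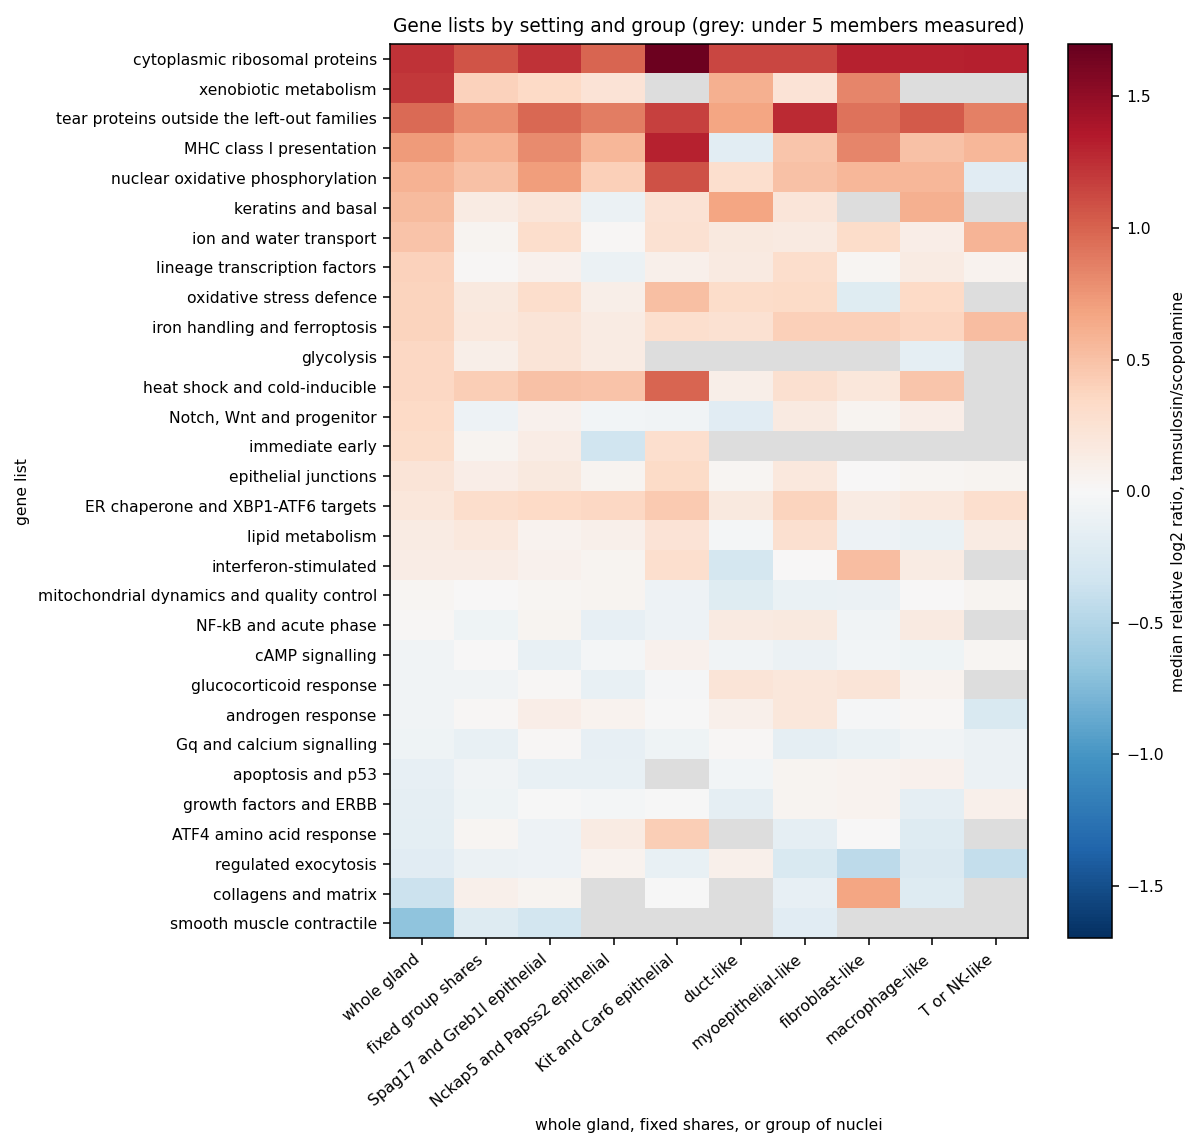
Median relative log2 ratio, tamsulosin over scopolamine, of gene lists with at least 8 measured members (rows) over the whole gland, with group shares held, and in each compared group of nuclei (columns); red is higher in tamsulosin, blue lower, grey under 5 measured members. Ribosomal proteins are red in every column, and collagens and matrix genes are blue over the whole gland (-0.36) and red in fibroblast-like nuclei (0.67).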

How the data were processed

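The authors deposited filtered matrices of raw UMI counts per gene and barcode, 1 per library. Per the submitters' processing notes, Cell Ranger 5.0.0 and the mm10 build were used; other settings are not given in the sources used here. Counts of barcodes passing the rule were summed per library and divided by a total without Mucl2, Scgb, Obp, Esp and mt- genes. Intervals are 95% exact Poisson for CPM, exact conditional binomial for ratios and Clopper-Pearson for shares. Kept totals without left-out genes were 14869264 UMIs in control, 11148653 in scopolamine and 21091428 in tamsulosin. The 2 compared libraries shared 7 kept barcodes.

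Nuclei were clustered with scanpy 1.11.5 (Leiden), without the left-out genes, and clusters named from marker lists. The thresholds for naming and the leading genes of unnamed epithelial groups were set after clusters were seen. Genes within a group were measured at 10 CPM and 50 UMIs summed over both libraries. Doublets were kept: the caller marked 11 scopolamine and 4 tamsulosin barcodes, too few to rely on, so an alternative removed the 126 and 464 highest scores. Named genes were the 15 highest and 15 lowest with a mean of at least 20 CPM, up to 4 called members per list and direction, and the drug targets, without unnamed models, ribosomal and haemoglobin genes in the first of these. Ribosomal genes, Atp1b3 and other list members or group values outside that rule were chosen after their values were seen. The comparison and lists were chosen with earlier results of these data known. Alternatives changed depth, limits on mt- and secretory genes, totals, pseudocount, filter, centring, doublets, clustering and group shares. Calculations were tested on simulated data.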

Additional observations from a re-analysis of the deposited data

Results flagged for a closer look

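Genes outside the total took 26.2% of kept UMIs in tamsulosin and 19.3% in scopolamine, both above the 8.34% of control. The mt- genes alone were 0.875% of kept UMIs in tamsulosin and 0.302% in control.

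A few results pointed in opposite directions in different groups of nuclei. Neither the difference between groups nor the part of free RNA of broken cells was tested. Adra1a had a relative log2 ratio of -1.06 in macrophage-like and 0.94 in duct-like nuclei. Plcb1, a phospholipase C of the Gq pathway, had -0.83 in macrophage-like and 0.82 in duct-like nuclei. Rapgef3, a cAMP-regulated exchange factor, had -1.15 in Spag17 and Greb1l nuclei and 0.65 in Kit and Car6 nuclei. The median of collagen and matrix genes was 0.67 in fibroblast-like and -0.14 in myoepithelial-like nuclei.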

How the results depend on the processing

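Of 143 named genes past 1.5-fold, 99 had a value in all 16 alternatives run on single genes, and 39 of these were past it in all 16; 16 others were past it in every one of fewer alternatives; and 64 of 142 with group shares held. No paired analysis was possible because each group has 1 library, and for the same reason no library could be left out. Against 876 genes at least 1.5-fold higher in tamsulosin and 479 genes at least 1.5-fold lower in tamsulosin, group shares held gave 374 and 34, a minimum of 30 CPM 516 and 243, and no filter 1606 and 1205. Lower genes numbered 308 at most 1% mt- and 780 with the secretory limit at 15%. The median log2 ratio was -0.20 with a total of all genes, against -0.07. Some genes changed sign: H2-Eb1 was -0.024 with the secretory limit at 15%, and with shares held Pde7a was -0.10, Col4a2 0.0070, Trp63 0.13 and Tmprss2 -0.011. At Leiden resolution 0.5, Spag17 and Greb1l nuclei were 15.1% of scopolamine and 44.4% of tamsulosin, Nckap5 and Papss2 nuclei 24.5% of tamsulosin, and duct-like nuclei 1.59% and 1.27%. At resolution 2.0 duct-like nuclei were 4.56% and 3.91%. Matrix genes higher in fibroblast-like nuclei, 18 in all, numbered 2 in the smaller cluster and 8 with left-out genes below 15%, both with fewer genes measured, and 12 to 21 otherwise; these alternatives, and leaving out salivary-like nuclei, were chosen after seeing the data. The other causes were not tested. Groups with under 100 nuclei in a library were not compared.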
